A study of Mus musculus with 4 samples.

Results

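The 52 genes described here act in G2 and mitosis, from the cyclins and kinases that start division to the motors, kinetochore proteins and condensins that carry it out. They were a list of symbols chosen with earlier results of these data known. Each was read from the probe set of highest mean among those that the platform annotation gives that symbol alone. Of the 52 genes, 51 had such a probe set (Ccnb1 had none), and 50 of those passed the filter on dim values and were tested among 13565 genes in all. The gene that missed the filter was Kif18a, a kinesin of chromosome alignment, at a mean log2 value of 6.83 against a limit of 6.85. The RNA came from mouse mesangial cells, the contractile cells of the kidney glomerulus, and was measured on 4 one-colour arrays. Of these, 2 were labelled low glucose and 2 were labelled TGF-beta1, a cytokine that drives matrix production in the glomerulus. The labels name no strain, dose, time or glucose level for the TGF-beta1 arrays, so effects of glucose and of TGF-beta1 cannot be told apart.

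Genes of G2 and mitosis are transcribed in a wave late in the cell cycle. Many of their promoters carry CCAAT boxes, bound by the factor NF-Y, and a cell cycle genes homology region (CHR), through which the MuvB core acts. With p130 or p107 in the DREAM complex MuvB represses these genes in resting cells, and with B-Myb and FoxM1 it activates them. TGF-beta is known for slowing the division of many cell types through CDK inhibitors, although in mesangial cells its effect on growth depends on the culture. Because the arrays measured bulk RNA, fewer cells in G2 and mitosis and less RNA per such cell cannot be told apart.

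The promoter sequences show which motifs the members share, a feature that the list was not built on. RefSeq (GRCm38.p6) gave 48 promoter windows for 45 of the 52 members, each running from 250 bases before the gene start to 50 after it. The CHR motif TTTGAA was searched on both strands and lay in 35 of 48 member windows (72.9%), against 17.9% of all 32851 windows. A CCAAT box, also searched on both strands, lay in 36 member windows (75.0%), against 37.4% of all windows. Both motifs occurred together in 31 member windows (64.6%), against 6.95% of all windows. Matches of the motifs can share at most an end base, and a match is a description of the letters, not a binding site.

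The 200 bases before the start are shown 5′ to 3′ for members that fell with different motif contents and for Cdk1, which did not pass the test. CCAAT boxes (CCAAT or ATTGG) and CHR motifs (TTTGAA or TTCAAA) are in capitals. The windows are chr7:135716380-135716579 (minus strand) for Mki67, chr19:37376182-37376381 (plus strand) for Kif11, chr11:40733438-40733637 (minus strand) for Hmmr, chr2:69206214-69206413 (minus strand) for Spc25, chr2:119618098-119618297 (plus strand) for Nusap1 and chr10:69352913-69353112 (minus strand) for Cdk1.
Mki67: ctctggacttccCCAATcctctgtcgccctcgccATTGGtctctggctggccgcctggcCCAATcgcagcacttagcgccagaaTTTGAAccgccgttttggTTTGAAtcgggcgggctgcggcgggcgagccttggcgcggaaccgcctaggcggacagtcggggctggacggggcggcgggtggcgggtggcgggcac
Kif11: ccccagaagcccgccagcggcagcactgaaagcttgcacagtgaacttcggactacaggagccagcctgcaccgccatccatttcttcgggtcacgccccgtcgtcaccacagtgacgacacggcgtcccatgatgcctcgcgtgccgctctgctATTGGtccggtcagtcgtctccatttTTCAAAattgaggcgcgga
Hmmr: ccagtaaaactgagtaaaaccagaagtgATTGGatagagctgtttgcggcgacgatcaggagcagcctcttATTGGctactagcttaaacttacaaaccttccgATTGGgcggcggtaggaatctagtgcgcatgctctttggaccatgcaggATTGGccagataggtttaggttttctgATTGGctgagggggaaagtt
Spc25: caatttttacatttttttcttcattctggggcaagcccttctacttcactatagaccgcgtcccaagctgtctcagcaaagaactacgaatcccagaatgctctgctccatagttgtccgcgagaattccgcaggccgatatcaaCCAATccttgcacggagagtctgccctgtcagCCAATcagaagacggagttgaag
Nusap1: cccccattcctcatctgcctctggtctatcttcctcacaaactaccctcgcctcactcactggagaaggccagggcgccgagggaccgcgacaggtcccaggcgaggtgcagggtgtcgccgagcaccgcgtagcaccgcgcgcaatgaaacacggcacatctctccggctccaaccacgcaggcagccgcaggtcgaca
Cdk1: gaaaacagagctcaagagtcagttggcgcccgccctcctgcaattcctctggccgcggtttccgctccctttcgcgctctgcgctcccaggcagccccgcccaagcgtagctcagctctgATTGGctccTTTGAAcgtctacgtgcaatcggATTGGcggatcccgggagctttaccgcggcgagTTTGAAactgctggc

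In Mki67 a run of CCAAT boxes at -188, -166 and -141 preceded CHR motifs at -116 and -98, given as the first base of the match, with negative numbers before the start. Kif11 had 1 CCAAT box at -45 and 1 CHR motif at -19. Hmmr and Spc25 had CCAAT boxes before the start and their CHR motif at bases 9 and 25 after it. Nusap1 had neither motif in its window, which says only that these letters are not there. Among the windows of members that fell, 7 of 9 held a CHR motif and 6 of 9 a CCAAT box. Among those of members that did not pass, 28 of 37 held a CHR motif and 29 of 37 a CCAAT box, so both motifs were common in both classes.

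**Figure D1:**
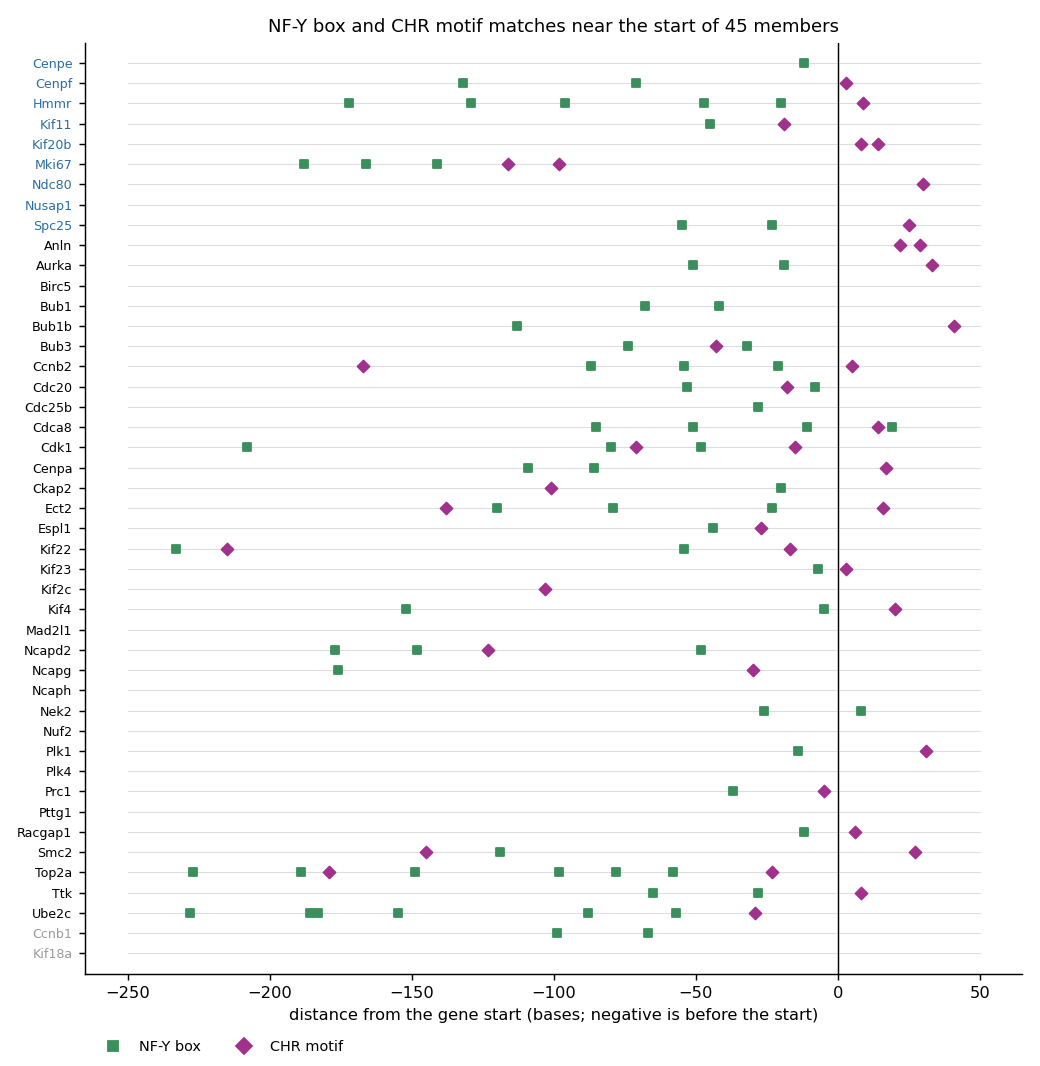
Each row is the promoter window of a member (45 genes, the first listed window where RefSeq gives several), and the horizontal axis is the distance from the gene start in bases. Green squares are CCAAT boxes (drawn as NF-Y box) and purple diamonds are CHR motifs on either strand, with names in blue for members that fell, black for members that did not pass and grey for members not tested. The CCAAT boxes lie mostly before the start and the CHR motifs on both sides of it, and rows without marks include Nusap1 and Birc5.

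Values below are log2(intensity + 46.88) after quantile normalisation, a scale that understates changes of dim genes. The arrays formed 2 pairs of 1 array per group: low glucose replicate 1 with TGF-beta1 replicate 2 (pair 1), and low glucose replicate 2 with TGF-beta1 replicate 1 (pair 2). The titles of pair 1 share a repeat tag whose meaning is not stated, while in pair 2 the low glucose title has another tag and the TGF-beta1 title has none, so pair 2 rests on the spike-ins. Across 18 probe sets of hybridisation spike-ins, control transcripts added to each sample, arrays of a pair differed by 0.0449 and 0.0847 (mean absolute log2 difference), and arrays of different pairs by 0.855 to 0.949. Actin probe sets at the 3′ end exceeded those at the 5′ end by 0.243 and 0.237 (log2) in pair 1, and by 0.595 (low glucose) and 0.397 (TGF-beta1) in pair 2. The test was limma with the array pair as a block, which leaves 1 residual degree of freedom per gene. limma estimated infinite prior degrees of freedom, so each standard error (SE) and p comes from the spread typical of genes of that mean intensity, and a gene's own spread between the pairs does not enter them. A gene is said to have fallen or risen where that fit gave an adjusted p below 0.05, with n = 2 arrays per group. No label states that a group's arrays stem from different cultures, and the p-values cover only the spread of these 4 arrays, possibly a technical one.

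The mitotic genes were slightly lower in TGF-beta1: 10 of the 50 tested members fell, 0 rose and 40 did not pass. Over all genes 10.6% fell and 7.88% rose, so the members' share of 20.0% that fell is above the background. The members and the block were chosen with earlier results of these data known, so this excess is a description and was not tested. The median difference of the members was -0.12 (-0.10 in pair 1 and -0.13 in pair 2), against -0.00014 over all genes tested. Without the block and low glucose replicate 2 it was -0.040, and without the block and low glucose replicate 1 it was -0.166. The difference was -0.25 or lower in 7 members, against 5.79% of all genes. The point estimate was negative in 44 of the 50 members (88.0%), against 50.1% of all genes. The calls rest on the block and on its prior: without the block, and with the block but the prior of the unblocked fit (2.80 degrees of freedom), limma called 0 members and 0 genes. In the fit without the block the unadjusted p was under 0.05 for 2 members, both lower (0.715% of all genes), namely Spc25 and Kif20b, and for 0 members that were higher (1.28% of all genes). With the block and that prior, 10 members had an unadjusted p under 0.05 and were lower, against 9.24% of all genes.

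Signs within the pairs, which share no array, were read next. Of the 50 members, 36 were lower in TGF-beta1 in both pairs, 3 were higher in both and 11 had opposite signs. Over all genes these shares were 34.4%, 33.9% and 31.7%. Both TGF-beta1 arrays lay below both low glucose arrays for 17 members, against 11.1% of all genes, and above them for 1 member (Bub3), against 9.81%. Across the 50 members the differences in pair 1 and pair 2 correlated at r = 0.571 (Spearman's rho 0.474), against r = 0.708 over all genes, which are not independent replicates.

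**Figure D2:**
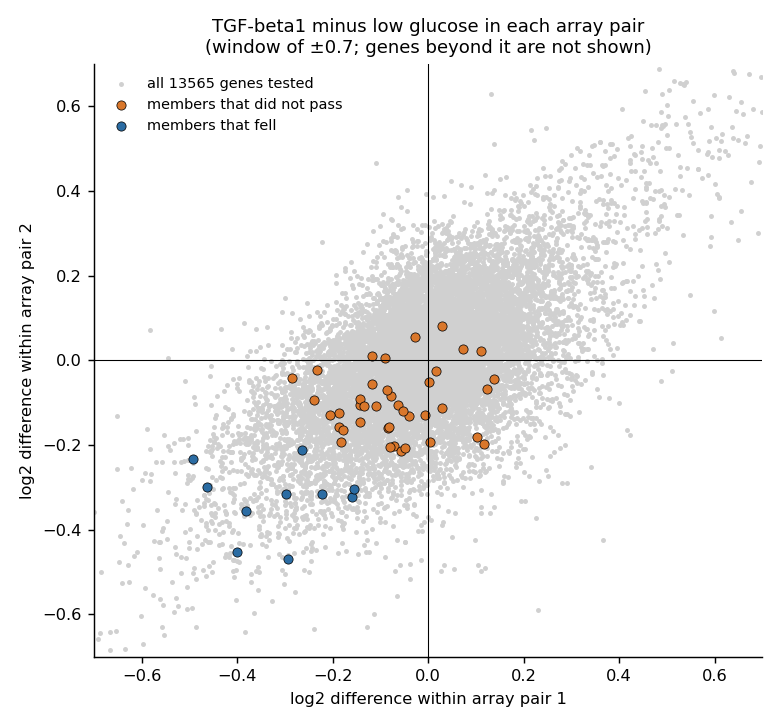
The horizontal axis is the log2 difference, TGF-beta1 minus low glucose, within array pair 1 and the vertical axis that within pair 2. Grey points are the 13565 genes tested (those beyond 0.7 are not shown), orange points the 40 members that did not pass and blue points the 10 that fell. The 10 blue points lie in the lower left quadrant, which holds 36 of the 50 members.

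Of the 6 centromere and kinetochore members, which link chromosomes to the spindle, 4 fell (66.7%, against 10.6% of all genes). Among them was the member with the largest difference. Spc25, a subunit of the NDC80 complex that grips microtubules, was at 9.92 and 9.90 in low glucose (replicates 1 and 2, the order used below) against 9.44 and 9.52 in TGF-beta1. Both TGF-beta1 arrays were lower than both low glucose arrays. Spc25 fell by 0.43 ± 0.083 (SE, n = 2; 1.34-fold; limma adjusted p = 6.21e-06), with -0.40 and -0.45 in the pairs. In the deposited intensities it read 938 and 893 in low glucose against 641 and 698 in TGF-beta1.

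Cenpe, the kinesin that carries chromosomes to the spindle equator, was at 7.98 and 8.05 in low glucose against 7.73 and 7.76 in TGF-beta1. Its groups did not overlap, and it fell by 0.27 ± 0.064 (limma adjusted p = 4.3e-04). Ndc80, which names the complex, was at 7.40 and 7.93 in low glucose against 7.61 and 7.24 in TGF-beta1, so the groups overlapped although each pair was lower. It fell by 0.24 ± 0.065 (limma adjusted p = 0.0023; -0.16 and -0.32 in the pairs). Cenpf, a large protein of the outer kinetochore, was at 8.55 and 8.02 in low glucose against 7.81 and 8.29 in TGF-beta1. Its groups overlapped too, and it fell by 0.24 ± 0.067 (limma adjusted p = 0.0036; -0.26 and -0.21). For Ndc80 and Cenpf the arrays differed more between the pairs than between the groups. When low glucose replicate 2 was left out without the block, Ndc80 was at 0.02. Cenpf was at 0.03 without low glucose replicate 1 and at 0.0027 without TGF-beta1 replicate 1 in the same fit. Another probe set of Cenpf was at 0.06 (-0.12 and 0.23).

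Nuf2, the partner of Ndc80 in the complex, was at -0.10 ± 0.077 with 0.0027 in pair 1 and -0.19 in pair 2, and did not pass. Cenpa, the histone variant that marks centromeres, was at -0.09 ± 0.079 and did not pass either, although its TGF-beta1 arrays (10.40 and 10.41) lay below its low glucose arrays (10.45 and 10.53). The 6 centromere and kinetochore members had a median of -0.24, the lowest median of the role groups with over 2 tested members. This small group leaves out further genes of the same structures, which stand in a list of other mitosis genes below. Spc24, also of the NDC80 complex, was at -0.09 ± 0.080 there (-0.18 and 0.0019 in the pairs) and did not pass. On that list Cenpk, Cenpl, Cenpm and Cenpq fell, while Cenph, Cenpi, Cenpn and Cenpt, for example, did not pass.

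Among 7 tested mitotic kinesins 2 fell (28.6%, against 10.6% of all genes). Kif11, the motor that pushes spindle poles apart, was at 8.40 and 8.37 in low glucose against 8.07 and 7.93 in TGF-beta1. The TGF-beta1 arrays were the lower ones in each pair and overall. It fell by 0.38 ± 0.067 (1.30-fold; limma adjusted p = 3.7e-07; -0.46 and -0.30 in the pairs), and its other probe sets were at -0.32 and -0.24. Kif20b, a kinesin of late cytokinesis, was dim, at 7.55 and 7.66 in low glucose against 7.19 and 7.26 in TGF-beta1. Its arrays separated by group, and it fell by 0.38 ± 0.066 (limma adjusted p = 2.94e-07; -0.29 and -0.47), with -0.32 on another probe set that passed the filter.

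The other 5 tested kinesins had negative estimates without passing, from -0.14 for Kif2c, a microtubule depolymerase, to -0.0045 for Kif22, a chromosome arm motor. Other kept probe sets of Kif2c were at -0.15 and 0.07, so its probe sets disagreed in sign. Kif20a and Kif23, motors of the central spindle, were at -0.08 ± 0.078 and -0.12 ± 0.080, and Kif4, a chromosome-bound kinesin, at -0.12 ± 0.064. Kif18a, below the filter and not tested, was at 6.91 and 7.03 in low glucose against 6.76 and 6.64 in TGF-beta1.

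Nusap1, which bundles spindle microtubules near chromosomes, was at 8.87 and 8.89 in low glucose against 8.53 and 8.49 in TGF-beta1. Replicates lay close together and the groups did not overlap. It fell by 0.37 ± 0.074 (1.29-fold; limma adjusted p = 1.58e-05; -0.38 and -0.36 in the pairs). Hmmr, a spindle protein that also binds hyaluronan, was at 8.78 in both low glucose arrays and at 8.47 and 8.62 in TGF-beta1. It fell by 0.23 ± 0.074 (limma adjusted p = 0.0142), and its 3 other probe sets above the filter were at -0.28, -0.31 and -0.32. Of the other spindle-associated proteins, Ckap2 was at -0.12 ± 0.070 and Tpx2, the activator of Aurora A, at 0.07 ± 0.083, the highest estimate of any member. Neither passed, and the other kept probe sets of Tpx2 were at -0.21, -0.05 and -0.04, so its probe sets disagreed in sign.

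Mki67, the Ki-67 protein that coats mitotic chromosomes and serves as a proliferation marker, was at 9.04 and 8.90 in low glucose against 8.67 and 8.55 in TGF-beta1. Every TGF-beta1 value lay below every low glucose value. It fell by 0.36 ± 0.076 (1.29-fold; limma adjusted p = 3.54e-05), with -0.49 in pair 1 and -0.23 in pair 2, so leaving out low glucose replicate 1 or TGF-beta1 replicate 2 leaves -0.23. Top2a, the topoisomerase that untangles sister chromatids, was at 10.43 and 10.38 in low glucose against 10.25 and 10.24 in TGF-beta1. Its groups did not overlap, but at -0.16 ± 0.080 it did not pass (limma adjusted p = 0.173).

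Smc4, a core ATPase of condensin, the complex that compacts chromosomes, was at 9.15 and 9.14 in low glucose against 8.83 and 8.85 in TGF-beta1. The groups did not overlap and the replicates nearly coincided. Smc4 fell by 0.31 ± 0.078 (1.24-fold; limma adjusted p = 0.0012; -0.30 and -0.32 in the pairs), with -0.23 and -0.26 on its other probe sets. The other 4 condensin genes were Smc2, the partner ATPase, at -0.12 ± 0.070, and the regulatory subunits Ncapd2, at -0.17 ± 0.080, Ncapg, at -0.13 ± 0.077, and Ncaph, at -0.14 ± 0.079. These 4 did not pass, and all 5 condensin genes were lower in both pairs, as were 34.4% of all genes.

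**Figure D3:**
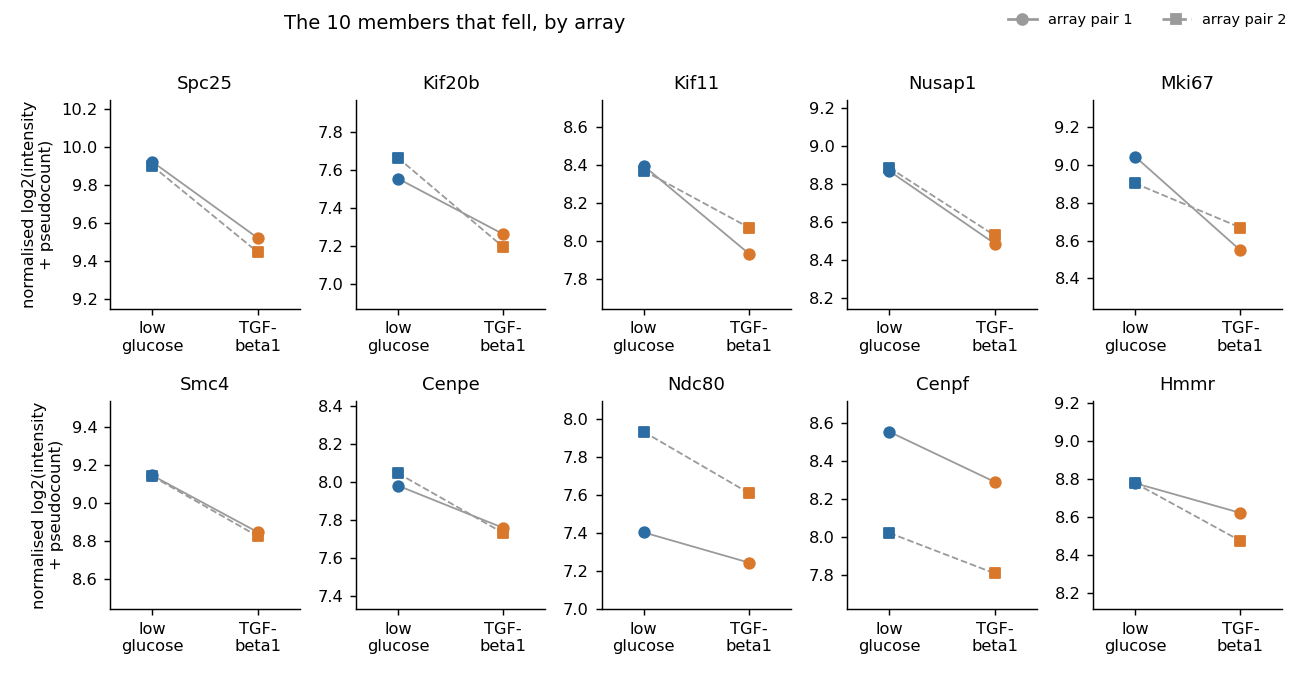
Each panel plots a member that fell, with normalised log2(intensity + pseudocount) on the vertical axis over the same span of 1.1 units. Blue is low glucose and orange is TGF-beta1, and lines join the arrays of pair 1 (circles, solid) and pair 2 (squares, dashed). Each line slopes down, and in Ndc80 and Cenpf the pairs lie apart.

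The tested genes that trigger mitosis did not pass, and the cyclin Ccnb1, without a probe set of its symbol alone, was not tested. Cdk1, the kinase that starts mitosis, was at 11.23 and 11.53 in low glucose against 11.48 and 11.23 in TGF-beta1. The high values were those of pair 2 and the low ones those of pair 1, and the difference was -0.02 ± 0.066 (limma adjusted p = 0.854). Its cyclin partners Ccna2 and Ccnb2 were at -0.14 ± 0.076 and -0.12 ± 0.077. Ccnb2 was lower in both TGF-beta1 arrays (10.54 and 10.53) than in both low glucose arrays (10.67 and 10.65). Of the phosphatases that activate Cdk1, Cdc25b was at -0.09 ± 0.077. Cdc25c was at 8.12 and 8.40 in low glucose against 8.28 and 7.91 in TGF-beta1. Its groups overlapped, and the difference was -0.17 ± 0.067 (limma adjusted p = 0.0608, and 0.0361 with arrays centred on their medians). Another kept probe set of Ccna2 was at -0.29. A p that misses the threshold does not show that these genes were unchanged.

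Among the mitotic kinases 0 of 4 passed. Aurka, which matures the spindle poles, was at 10.11 and 10.04 in low glucose against 9.95 and 9.87 in TGF-beta1. Its groups did not overlap and the difference was -0.17 ± 0.082 (limma adjusted p = 0.15; -0.24 and -0.09 in the pairs). Plk1, the Polo kinase of mitotic entry, was at 9.86 and 9.45 in low glucose against 9.41 and 9.58 in TGF-beta1. The groups overlapped, and the difference of -0.16 ± 0.083 came mostly from pair 1 (-0.29, against -0.04 in pair 2). Nek2, a centrosome kinase, was at 10.24 and 10.56 in low glucose against 10.37 and 10.05 in TGF-beta1. The groups overlapped while both pairs were lower, and the difference was -0.19 ± 0.080 (limma adjusted p = 0.0824), with -0.19, -0.36 and -0.04 on its other kept probe sets. Plk4, the kinase of centriole copying, was at 0.05 ± 0.076, with 0.12 and 0.07 on its other kept probe sets. Another kept probe set of Aurka was at -0.0094.

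The spindle checkpoint, which delays anaphase until chromosomes attach, had estimates on both sides of 0. Bub1b, the checkpoint protein BubR1, was at 9.21 and 9.35 in low glucose against 9.20 and 9.03 in TGF-beta1. The TGF-beta1 arrays were the lower ones, and the difference was -0.17 ± 0.081 (limma adjusted p = 0.124). The kinases Bub1 and Ttk were at -0.08 ± 0.071 and -0.04 ± 0.064, while Mad2l1, the inhibitor of Cdc20, was at 0.03 ± 0.082 and Bub3, the partner of Bub1, at 0.05 ± 0.071. For the genes of anaphase, estimates ran from -0.13 ± 0.076 for Espl1, the separase that cleaves cohesin, to 0.01 ± 0.074 for Ube2c, the ubiquitin-conjugating enzyme of the anaphase-promoting complex. Cdc20, its activator, was at -0.08 ± 0.076 and Pttg1, securin, at -0.04 ± 0.074. None of these 9 genes passed. Espl1 was at 8.996 and 8.73 in low glucose against 8.70 and 8.76 in TGF-beta1, with only its first low glucose array standing high. Its difference was -0.23 in pair 1 and -0.02 in pair 2, and Pttg1 had opposite signs in the pairs (0.12 and -0.20).

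The chromosomal passenger complex corrects attachments and then moves to the midzone. All 4 of its members had small negative estimates in both pairs without passing (34.4% of all genes were lower in both). Aurkb, its kinase, was at 9.47 and 9.17 in low glucose against 9.06 and 9.41 in TGF-beta1, so arrays of a pair were closer than arrays of a group. The difference was -0.09 ± 0.081, and another probe set showed -0.19. Incenp, the scaffold, was at -0.11 ± 0.082 and Birc5, survivin, at -0.07 ± 0.073. Cdca8, borealin, was at 10.36 and 10.26 in low glucose against 10.04 and 10.31 in TGF-beta1. Its groups overlapped, and the difference was -0.14 ± 0.081, with -0.01 and -0.06 on its other probe sets. The genes of the midzone and cytokinesis lay nearest to 0. Prc1, which bundles midzone microtubules, was at -0.04 ± 0.083, Ect2, which activates RhoA for furrowing, at -0.04 ± 0.082 and Anln, anillin, at 0.05 ± 0.081. Racgap1, which recruits Ect2 as part of centralspindlin, was at 10.06 in both low glucose arrays against 10.07 and 9.94 in TGF-beta1, and differed by -0.05 ± 0.082. Of these 4 genes 0 passed, 3 had opposite signs in the pairs (31.7% of all genes), and another kept probe set of Anln was at -0.29.

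**Figure D4:**
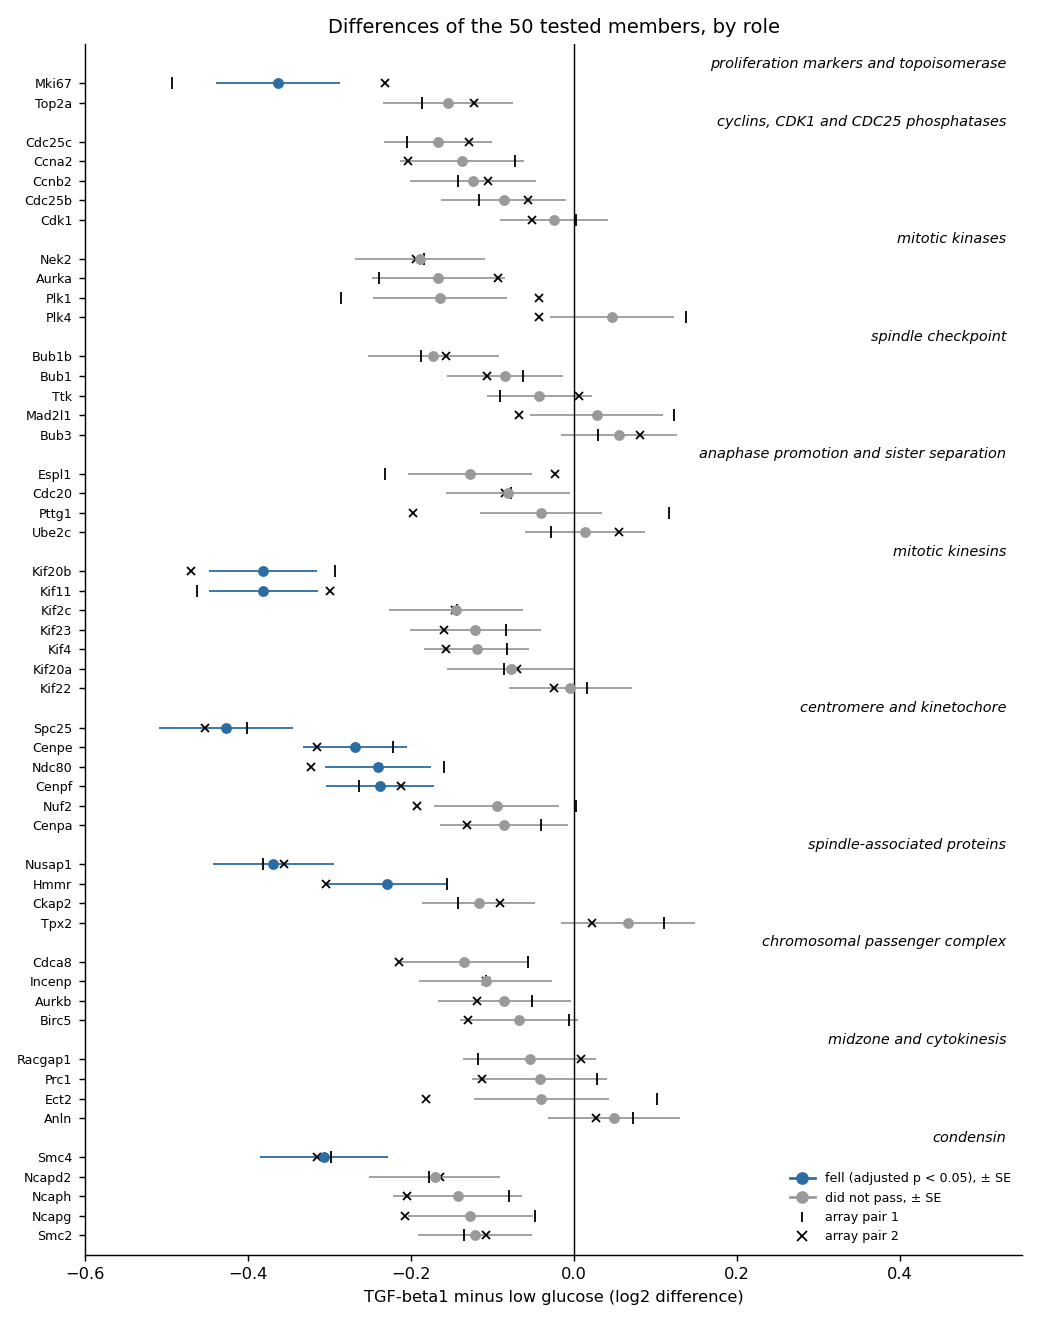
Points are the log2 differences, TGF-beta1 minus low glucose, of the 50 tested members grouped by role, with bars of 1 SE from limma with the array pair as a block; ticks and crosses are the differences within pair 1 and pair 2. Blue marks the 10 members that fell, 4 of them in the centromere and kinetochore group, and grey the 40 that did not pass.

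The other probe sets of the same genes gave a further reading from the same arrays. Of 45 other probe sets above the filter that belong to members, 36 were lower in TGF-beta1. The rest were higher and belong to Bub3, Cdc20, Cenpf, Incenp, Kif2c, Plk4, Prc1 and Ttk. On the probe sets tested, 50.1% of all genes were lower, and this share was not computed for their other probe sets. Among members that fell, Spc25, Nusap1, Mki67, Cenpe and Ndc80 had no other probe set above the filter. Of the 9 that belong to members that fell, 8 were lower, the exception being the Cenpf probe set named above. In a fit of all kept probe sets, counting a member by any of them, 15 members fell and 0 rose. Counting by any probe set gives a gene more chances to pass, for members and other genes alike. The share of all genes that fell when counted this way is not given, so the 15 cannot be set against a background. The members that fell were dimmer than those that did not pass, with median mean log2 values of 8.43 and 9.96. Across the 50 members the difference correlated with this mean at r = 0.471 (rho 0.453). The SE depends on the mean alone, being 0.064 for Cenpe (mean 7.88), 0.083 for Plk1 (9.58) and 0.066 for Cdk1 (11.37). A given difference can therefore pass at some means and not at others. Cdc27, from a list below, passed at -0.18 (mean 8.23), while Nek2 did not at -0.19 (10.31). Intensities of different probe sets are not comparable as levels of RNA.

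Members varied more with the array pair than with the group in 30 of 50 cases. The median absolute difference was 0.15 between the pairs and 0.12 between the groups, against 0.24 and 0.09 over all genes. Both pair 2 arrays lay above both pair 1 arrays for 18 members (37% of all genes), for example Incenp and Ckap2, and below them for 10 (36% of all genes), for example Aurkb.

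Other genes of the cell division machinery, from lists that hold no member, were read in the same fit. Beside the 10.6% of all genes that fell and the 7.88% that rose, of 56 other mitosis genes 13 fell (23.2%) and 0 rose, and their median was -0.10. G2e3, a ubiquitin ligase of G2, fell by 0.39 ± 0.071, Ncapg2, a condensin II subunit, by 0.35 ± 0.070, Cenpk, of the inner kinetochore, by 0.35 ± 0.064 and Sgo2a, a protector of centromeric cohesion, by 0.32 ± 0.064. Without the block and low glucose replicate 2, Cenpk was at -0.15. Of 11 cohesin genes 2 fell (18.2%) and 0 rose (median -0.10), Stag2 by 0.31 ± 0.066 and Smc3 by 0.22 ± 0.080 (-0.13 without the block and TGF-beta1 replicate 1). The list of the anaphase-promoting complex held 17 genes, including the associated genes Fbxo5, Fzr1 and Ube2s, which do not encode subunits. Of these 17 genes 2 fell (11.8%, near the share of all genes), Anapc13 by 0.19 ± 0.062 and Cdc27 by 0.18 ± 0.067, and 0 rose (median -0.05). Cdc27 did not pass with a pseudocount of 16, with no filter or with all kept probe sets (limma adjusted p = 0.0515, 0.0959 and 0.0557). Replication and S phase genes had a median of -0.08, but 2 of 48 fell and 2 rose. Pola1, a DNA polymerase subunit, fell by 0.25 ± 0.064 and Rpa3, of the single-strand binding complex, by 0.31 ± 0.082, and the origin recognition genes Orc1 and Orc2 rose by 0.20 ± 0.064 and 0.23 ± 0.073. Rpa3 was at -0.17 in pair 1, and without the block Orc1 was at 0.06 without TGF-beta1 replicate 1 and Orc2 at 0.12 without TGF-beta1 replicate 2. The share that fell was 4.17% there and 20.0% among the members, and the difference between these lists was not tested.

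Among 23 regulators of mitotic genes 4 fell (17.4%, against 10.6% of all genes) and 0 rose (median -0.03). Rbl2, which encodes p130, fell by 0.35 ± 0.068 and Rbl1, which encodes p107, by 0.30 ± 0.071, in each case with overlapping groups. Lin54, the MuvB subunit that binds CHR motifs, fell by 0.24 ± 0.070 and E2f8, a repressor of the E2F family, by 0.21 ± 0.073, with -0.05 and -0.09 in pair 1. Without the block and low glucose replicate 2, Rbl2 was at -0.0099, Rbl1 at 0.00196, Lin54 at 0.05 and E2f8 at 0.03. The activators Foxm1 (0.02 ± 0.076) and Mybl2 (0.12 ± 0.065), which encodes B-Myb, did not pass.

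CDK inhibitors moved both ways, with 2 of 6 rising and 2 falling, beside 7.88% of all genes that rose and 10.6% that fell. Cdkn1a, which encodes p21, was at 9.07 and 9.15 in low glucose against 9.84 and 9.86 in TGF-beta1. Both TGF-beta1 arrays were higher, and it rose by 0.74 ± 0.082 (limma adjusted p = 4.43e-17). Cdkn2b, which encodes p15, rose by 0.44 ± 0.081, without overlap between the groups (9.01 and 9.06 in low glucose, with 9.48 and 9.46 in TGF-beta1). Cdkn2c fell by 0.28 ± 0.082 and Cdkn2d by 0.25 ± 0.081. Of 12 G1 cyclins and kinases 2 rose and 1 fell, beside 7.88% and 10.6% of all genes. Ccnd1, cyclin D1, rose by 0.31 ± 0.081 and Cdk6 by 0.22 ± 0.081, while Ccne2, a cyclin E, fell by 0.26 ± 0.067. Cdk6 had an adjusted p of 0.0843 with arrays centred on their medians, and was at -0.11 and -0.10 without the block when low glucose replicate 2 or TGF-beta1 replicate 2 was left out. For Anapc13 that fit gave 0.04 without TGF-beta1 replicate 1.

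**Figure D5:**
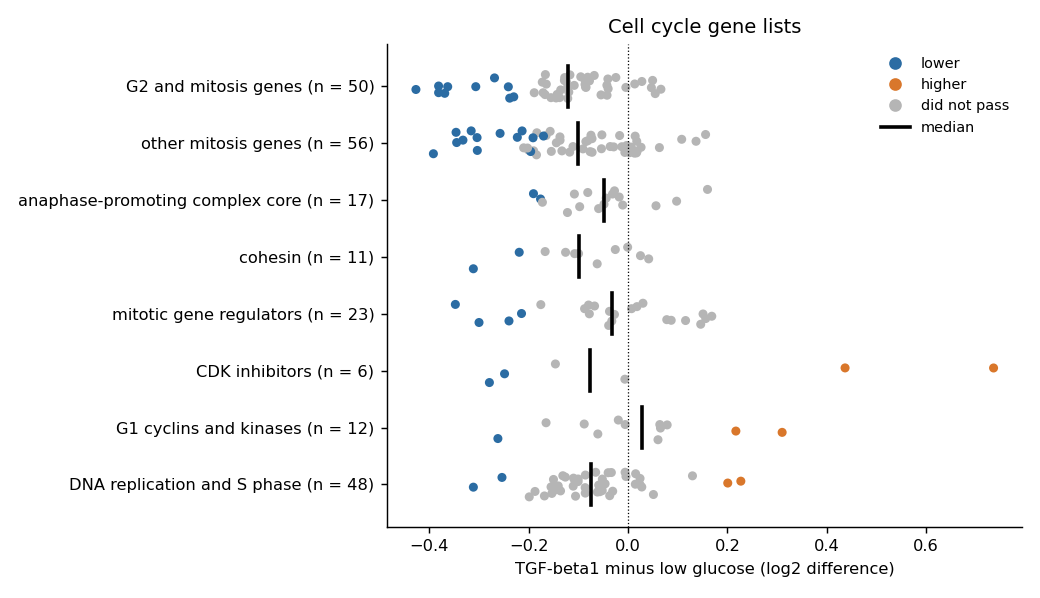
Each point is a gene at its log2 difference, TGF-beta1 minus low glucose, in 8 lists, blue where it fell, orange where it rose and grey where it did not pass, with a black bar at the list median; vertical scatter within a list has no meaning. The medians run from -0.12 in the G2 and mitosis genes to 0.03 in the G1 cyclins and kinases, and the largest rises are those of Cdkn1a and Cdkn2b.

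Markers of cell types were read beside these results. Of 7 mesangial markers with a probe set 5 passed the filter, while Thy1 and Gata3 did not. Itga8 passed narrowly, at a mean log2 value of 6.855 against a limit of 6.854. Pdgfrb was dim too, at deposited intensities of 99 and 88 in low glucose against 87 and 118 in TGF-beta1. The array medians ran from 78 to 100. The summed deposited intensity of the 7 markers was 539 to 649 in low glucose against 615 to 710 in TGF-beta1. Acta2, smooth muscle actin, rose by 0.32 ± 0.066 (limma adjusted p = 3.26e-05), and the other 4 above the filter did not pass. Tubule epithelial markers passed in 5 of 7 cases, and their summed deposited intensity was 3332 to 3810 in low glucose against 2999 to 3075 in TGF-beta1. Cdh16 made up most of that sum, at 2014 and 1919 in low glucose against 1682 and 1495 in TGF-beta1. Cdh16 fell by 0.31 ± 0.074 and Lrp2 by 0.29 ± 0.077, while Pax8, Umod and Epcam did not pass, Epcam at 0.06 ± 0.065. The macrophage list (5 of 6 above the filter, 2038 to 2219 against 1721 to 1864) was carried mainly by Csf1r, with Ptprc, the defining leukocyte marker, below the filter. Csf1r fell by 0.38 ± 0.080 (limma adjusted p = 3.2e-05). The other macrophage markers above the filter did not pass and had both signs: Cd68 at 0.14, Adgre1 at 0.06, Cd14 at -0.02 and Itgam at -0.10. Podocyte (4 of 5) and endothelial markers (2 of 6) overlapped between the groups, at 1120 to 1394 against 1106 to 1466 and 313 to 401 against 299 to 431. Within the podocyte sum Synpo, synaptopodin, fell by 0.58 ± 0.065 (limma adjusted p = 5.75e-17), more than any mitotic member, and Podxl, podocalyxin, rose by 0.23 ± 0.072. No marker was at 0, which does not show that each was expressed. Ptprc, for example, read 24 to 36 and Emcn 24 to 35, below the array medians. The tubule and macrophage sums, carried mainly by Cdh16 and Csf1r, moved in the same direction as the mitotic genes. Their part in the result was not tested.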

How the data were processed

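The authors deposited 1 linear intensity per probe set and array, with probe summary and scaling not given in the sources used here. Gene names came from the platform annotation, and 34945 of 45037 probe sets (64 controls left out) had 1 symbol. To each intensity the 25th percentile of all values, 46.88, was added before taking log2. Array medians then differed by 0.227, above a limit of 0.1, so arrays were quantile normalised. The 27022 probe sets whose mean reached the 40th percentile were kept, and the brightest per gene was tested (13565 genes). limma 3.58.1 in R 4.3.3 (lmFit, eBayes with an intensity trend, two-sided, Benjamini-Hochberg over all genes, threshold 0.05) was fitted with the array pair as a block. Pairs follow the spike-in values; a repeat tag of unstated meaning is shared by the titles of pair 1 only. Replicate numbers only name arrays. The number of arrays limits the precision. Figures used matplotlib 3.10.9 (Python 3.11.15).

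Members, roles, lists and the use of the block were chosen with earlier results of these data known. Values by array are given for members that fell, for Mki67, Top2a, Cdk1, Aurka, Aurkb and Plk1, and for the member of largest absolute moderated t in each role; up to 4 called genes per list are named. Foxm1 and Mybl2, and counts, probe sets and examples beyond this rule, were named after their values were seen. Alternatives were other pseudocounts, scalings, filters and probe set choices, other blocks and priors, and leaving out arrays.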

Additional observations from a re-analysis of the deposited data

How the results depend on the processing

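The count of members that fell was 10 to 15 and the members' median -0.15 to -0.11 under the alternative pseudocounts, scalings, filters and probe set choices; the median of -0.147 belonged to arrays centred on their medians, where 33.4% of all calls were rises (42.7% in the fit reported). The count of 15 belonged to all kept probe sets, where a gene with several probe sets has more chances to pass. The highest linear mean per gene, an alternative chosen after seeing the data, gave 10. Calls ended with no replicate block, with the replicate number as replicate block, and with the prior of the unblocked fit: each gave 0 members, 0 genes of the other cell cycle lists and 0 of all genes (1433 lower and 1069 higher in the fit reported, with 26 list genes that fell and 6 that rose). Cdc25c passed (adjusted p = 0.0361, limma) after median centring. The replicate numbers do not mark the array pairs.

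With 1 array left out and the block kept, only the other pair's difference remains, with no test. Without the block these fits called 0 to 9 genes, 0 members and 0 list genes. Over both kinds of fit the members' median ranged from -0.166 (without low glucose replicate 1) to -0.040 (without low glucose replicate 2). Of the 50 tested members, 26 changed sign in at least 1 of the fits without the block and an array, 11 with the block kept, and 27 in either; of the 10 that fell, 8 kept their sign in all. Among the genes the naming rule selects, those that changed sign are given with their lowest and highest values: Cenpf -0.505 and 0.0280, Ndc80 -0.506 and 0.0239, Aurkb -0.264 and 0.0932, Cdc25c -0.348 and 0.0133, Cdk1 -0.17 and 0.12, Espl1 -0.26 and 0.0061, Plk1 -0.369 and 0.0395, Racgap1 -0.121 and 0.0118, Anapc13 -0.423 and 0.0423, Cdk6 -0.11 and 0.55, E2f8 -0.457 and 0.0276, Lin54 -0.531 and 0.0520, Rbl1 -0.602 and 0.00196. Dropping an array without the block mixes the array pairs into the groups, and the cause of each change was not tested.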
